A study of Mus musculus with 18 samples.

Results

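The acute mRNA response of MIN6 cells to cyclopiazonic acid (CPA) was taken from 6 of the 18 libraries of the series, the mRNA-seq libraries of CPA1 and control cells. MIN6 is a mouse insulinoma line that keeps many features of pancreatic β-cells. CPA1 cells received 200 µM CPA for 1 h and control cells DMSO for 18 h, so the 2 groups differ in the length of the vehicle or drug exposure as well as in the drug. Each treatment was repeated in 3 independent experiments, which the labels number as batches, and the experiment number pairs a control with a CPA1 library. The 3 mRNA-seq libraries after 18 h of CPA (CPA18) and the Ribo-seq libraries of the same experiments, which hold ribosome-protected fragments, were used for comparison. All groups are of 1 cell line in culture, and 1 h and 18 h of CPA share the same controls.

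CPA is a reversible inhibitor of the SERCA pumps, which carry calcium from the cytosol into the lumen of the endoplasmic reticulum (ER). Loss of ER calcium impairs the folding of secretory proteins and sets off the unfolded protein response (UPR). Its PERK arm phosphorylates eIF2α, lowers general translation and favours translation of the transcription factor ATF4, while the IRE1 and ATF6 arms raise ER chaperones. Immediate early genes are transcribed within minutes of a calcium, kinase or stress signal without new protein synthesis, and in β-cells calcium entry and cAMP are their usual triggers.

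Total counts were 520960, 1644598 and 2408123 for control replicates 1 to 3 and 1640140, 1513072 and 1893151 for CPA1. All 7 β-cell markers checked, among them Ins1, Ins2, Pdx1 and Mafa, had reads in every one of the 6 libraries, and of 13 markers of other cells 5 had none and 2 had reads in all 6. Their summed level ran from 47.99 to 126 RPM (reads scaled to the library total) in control and from 44.9 to 150.0 in CPA1, most of it from glucagon (Gcg). A single transcript, Lars2 (mitochondrial leucyl-tRNA synthetase), took 45.1, 7.19 and 15.1% of the reads of the control libraries and 53.5, 38.1 and 8.27% of those of CPA1. Its share in the Ribo-seq libraries was 0.68, 0.083 and 0.42% in control and 1.64, 0.36 and 1.68% in CPA1. Whether the reads assigned to it come from Lars2 mRNA was not tested. Control replicate 1, the shallowest of the 6, stood apart, with a mean correlation of 0.78 with the other mRNA-seq libraries and 0.79 with the Ribo-seq libraries. Control replicate 2, whose label text names the other assay, correlated 0.87 on average with the other mRNA-seq libraries and 0.69 with the Ribo-seq libraries, and was used as titled. Since 1 transcript moved the total this much, every fold change is given relative to the total count and, for the named genes whose call changed, also with TMM scaling, which sets the typical gene to no change. The median log2 fold change of all genes was −0.13 with the total count and 0.0036 with TMM.

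After 1 h of CPA, 22 of 10126 genes tested rose and 0 fell at an adjusted p under 0.05, or 0.217% and 0% of the genes (edgeR quasi-likelihood test with the experiment as a block). They were immediate early genes (Fos, Fosb, Fosl2, Jun, Junb, Egr1, Egr4, Ier2, Btg2, Zfp36, Dusp1, Arc, Sik1), genes of the ATF4 branch of the UPR (Atf4, Ddit3, Chac1, Trib3), and Cebpd, Midn, C2cd4b, H1f2 and H1f3. Their log2 fold changes ran from 1.08 (H1f2) to 2.92 (Chac1). All 22 were higher in each of the 3 experiments, and in 21 of them every CPA1 library lay above every control library, which held for 1.80% of all genes tested. Fosl2 was the exception, with overlapping groups.

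At an unadjusted p under 0.05, 195 genes were higher and 421 lower, and DESeq2 called 33 up and 4 down. The absence of lower calls depended on the filter, since 35 genes were called up and 38 down with at least 10 reads in each library, and when genes with few reads were kept, 45 up and 121 down. Every CPA1 library lay below every control library in 236 genes. TMM scaling called 26 genes (0.257%), all up, of which 19 were among the 22. Midn, Sik1 and H1f3 were not called with TMM. Without the block for experiment 0 genes passed, with 230 at an unadjusted p under 0.05, and with TMM and no block 1 gene passed. Leaving out experiment 1 left 5 of the 22 (Chac1, Fosb, Fos, Junb and Btg2), and these 5 passed with each library and each experiment left out in turn. Without control replicate 2, 17 genes passed, and without control replicate 1 or CPA1 replicate 1 12 and 10 did, all up. Atf4 and Dusp1 were among those not called without either library of experiment 1, and Ddit3 was not called without CPA1 replicate 1.

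**Figure D1:**
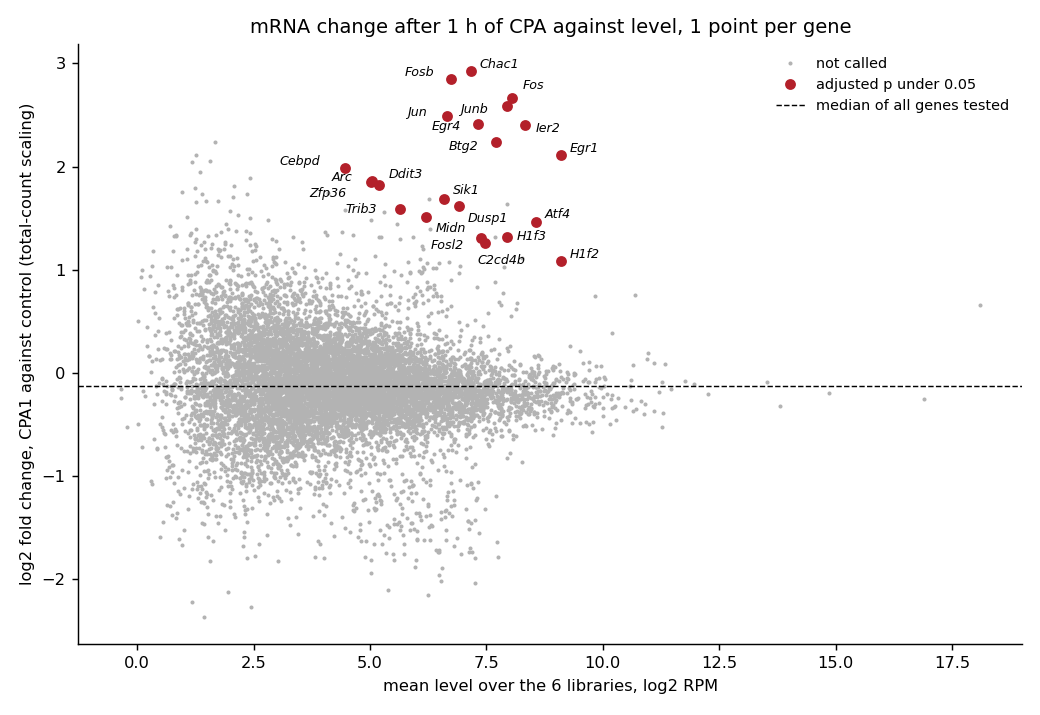
Each point is 1 of the 10126 genes tested, with its mean level over the 6 control and CPA1 libraries (log2 RPM) on the horizontal axis and its log2 fold change, CPA1 against control, on the vertical axis. Red points are the 22 genes with an adjusted p under 0.05, all above the dashed line that marks the median of all genes at −0.13.

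The AP-1 genes, whose products pair as FOS and JUN dimers on DNA, gave 5 of the 22 calls. Fos was at 99.8, 80.3 and 41.1 RPM in control replicates 1 to 3 and at 589.6, 479.8 and 301 RPM in CPA1 (log2 fold change 2.66 ± 0.29 (SE), adjusted p = 2.1e-06). Fosb rose from 17.3, 27.4 and 35.3 to 188, 203 and 174 RPM (log2 fold change 2.85 ± 0.32 (SE), adjusted p = 3.1e-06). Each CPA1 library was several times its own control for both genes. Control replicate 1 held 9 reads of Fosb. Junb rose from 17.3, 102 and 113 to 277, 516 and 449 RPM (log2 fold change 2.58 ± 0.29 (SE), adjusted p = 3.1e-06). Jun was at 47.99, 38.9 and 11.6 RPM in control and 209, 189.7 and 109 RPM in CPA1 (log2 fold change 2.49 ± 0.33 (SE), adjusted p = 3.7e-05). The control levels of Jun and Junb differed between experiments in opposite directions, Junb lowest in experiment 1 and Jun in experiment 3, while all CPA1 libraries stayed above all controls. Fosl2, the FRA-2 gene, rose less, from 80.6, 56.5 and 162 to 269, 150.0 and 284 RPM (log2 fold change 1.303 ± 0.27 (SE), adjusted p = 0.029), and CPA1 replicate 2 stayed under control replicate 3. Jund, another JUN gene and chosen after its values were seen, was at 242, 724 and 651 RPM in control and 325, 632 and 644 RPM in CPA1, and its groups overlapped (log2 fold change 0.085, adjusted p = 0.99).

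The EGR genes encode zinc finger factors induced through the ERK pathway. Egr1 rose from 278, 272 and 91.8 to 1115, 862 and 661 RPM (log2 fold change 2.11 ± 0.29 (SE), adjusted p = 4.7e-05). Egr4 rose from 26.9, 79.05 and 51.1 to 194, 375 and 236 RPM (log2 fold change 2.41 ± 0.32 (SE), adjusted p = 3.1e-05). Both were separated between the groups in every library. Ier2, an early nuclear protein, rose from 49.9, 183 and 98.4 to 376, 648 and 582 RPM (log2 fold change 2.41 ± 0.29 (SE), adjusted p = 4.9e-06), and Arc, best known from neuronal synapses, from 7.68, 17.03 and 17.03 to 44.5, 38.3 and 72.4 RPM (log2 fold change 1.86 ± 0.35 (SE), adjusted p = 0.007). Among the orphan nuclear receptors, Nr4a1 was at 32.6, 180.0 and 202 RPM in control and 298, 233 and 519.8 RPM in CPA1, with no overlap of the groups but an adjusted p of 0.072, and it passed with DESeq2 (adjusted p = 0.038).

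**Figure D2:**
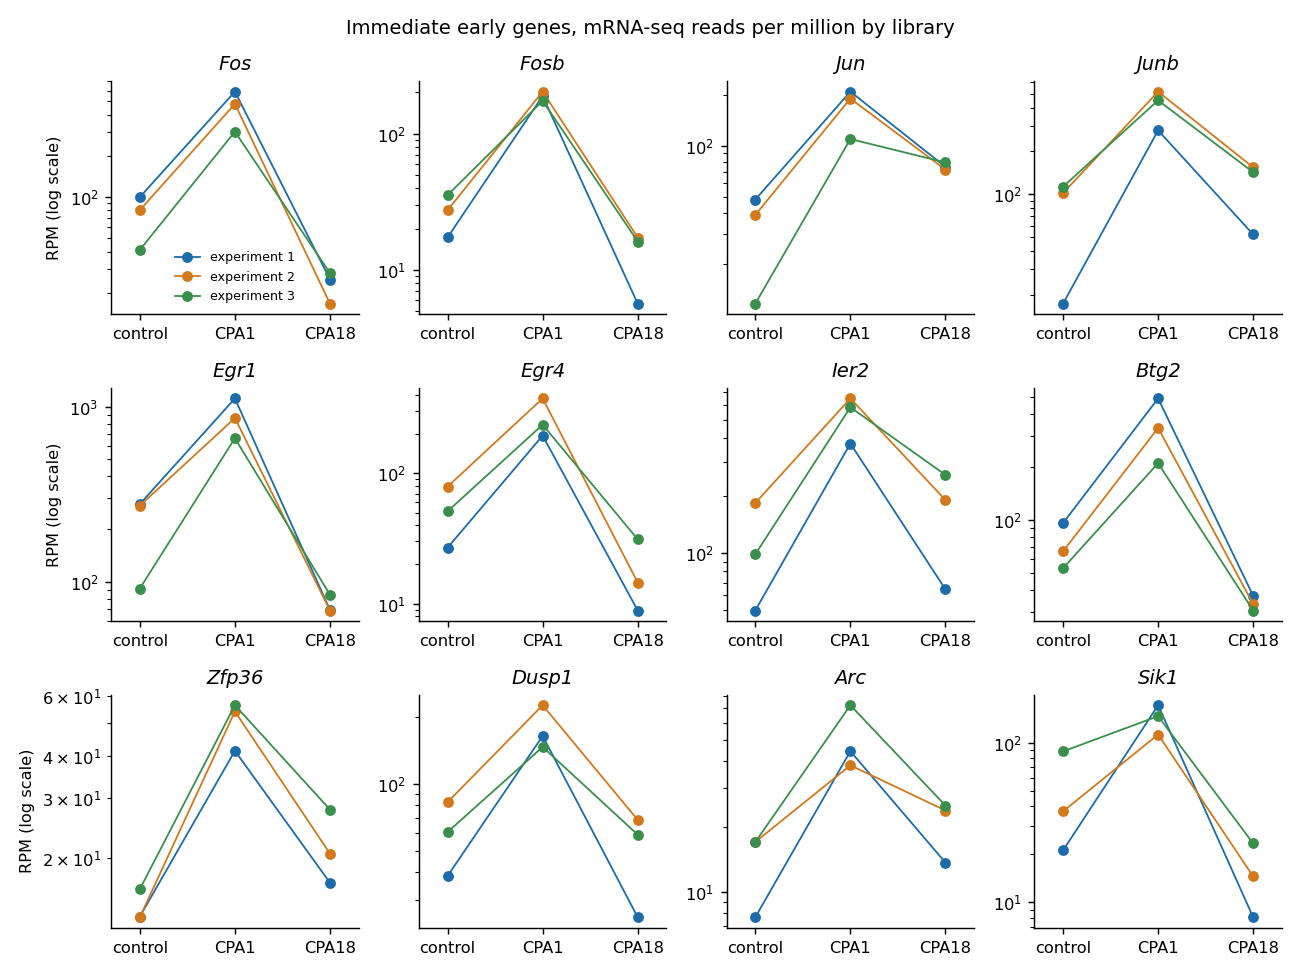
RPM (log scale) of 12 called immediate early genes in the control, CPA1 and CPA18 mRNA-seq libraries, 1 line per experiment. In every panel and every experiment the CPA1 point lies above the control and the CPA18 points.

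Among called early genes that restrain signalling or mRNA, Btg2, an antiproliferative adaptor of the CCR4-NOT deadenylase, went from 95.98, 66.3 and 53.2 to 490.2, 333 and 210.2 RPM (log2 fold change 2.23 ± 0.26 (SE), adjusted p = 4.1e-06). Zfp36, which encodes tristetraprolin, a protein that shortens the life of mRNAs with AU-rich elements, rose from 13.4, 13.4 and 16.2 to 41.5, 54.2 and 56.5 RPM (log2 fold change 1.85 ± 0.33 (SE), adjusted p = 0.004). Dusp1, a phosphatase that inactivates MAP kinases, rose from 38.4, 82.7 and 60.6 to 165, 227 and 147 RPM (log2 fold change 1.62 ± 0.29 (SE), adjusted p = 0.004). All 3 were above every control library in every CPA1 library. Sik1, a kinase that restrains CREB coactivators, was at 21.1, 37.1 and 88.04 RPM in control and 171, 112 and 146 RPM in CPA1 (log2 fold change 1.68 ± 0.34 (SE), adjusted p = 0.02). Its call was lost with TMM (log2 fold change 1.78, adjusted p = 0.087), and its fold was larger in experiments 1 and 2, at 7.95 and 3.002, than in experiment 3, at 1.66. Other listed early genes of this kind did not pass, with adjusted p of 0.36 for Dusp4, 0.56 for Dusp5, 0.64 for Dusp6, 0.42 for Errfi1 and 0.66 for Trib1. These 5 were chosen after their values were seen.

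The gene lists were written with earlier results of these data known, so the shares of their members are descriptive. Of the 54 immediate early genes listed, 41 had a read in every mRNA-seq library and were tested. Of these, 13 rose, 0 fell and 28 did not pass, against 0.217% of all genes called up. Their median log2 fold change lay 1.10 above that of all genes, and 1.46, 1.46 and 0.84 above it in experiments 1, 2 and 3. Of the 41, 33 were above the median gene in every experiment, as were 14% of the genes tested, and 0 were below it in every experiment, as were 12.4% of them. The summed level of the 41 was 2059.7, 3867 and 3168 RPM in control and 6349, 6646 and 6765 RPM in CPA1. These sums are relative to totals of which Lars2 took 45.1, 7.19 and 15.1% in control and 53.5, 38.1 and 8.27% in CPA1. How alike the libraries of a group appear therefore depends on the scaling. The response was uneven within the list. Myc was at 7.68, 3.65 and 2.91 RPM in control and 7.32, 1.98 and 3.17 RPM in CPA1, Srf at 53.7, 60.8 and 73.9 and 60.97, 58.2 and 100.9 RPM, and Ier5 at 28.8, 27.97 and 26.99 and 33.5, 31.7 and 41.7 RPM, with adjusted p of 0.99, 0.98 and 0.98. These 3 were chosen after their values were seen, to show members that did not pass.

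The other 13 listed early genes lacked a read in at least 1 library, and 8 of them were higher in CPA1 in all 3 experiments. No share of all such genes is at hand for comparison. Where control replicate 1, the shallowest library, had 0 reads, any read in CPA1 counts as higher. Against a floor of 3 counts there, the folds in experiment 1 were 0.11 for Fosl1, 0.53 for Egr3 and 0.85 for Ier5l. They were 1.38 for Egr2, 1.91 for Ier3, 2.22 for Nr4a3 and 3.71 for Klf4. Atf3, a stress-induced repressor downstream of ATF4, had 0 reads in control replicate 1 and 9.12 and 2.91 RPM in the other controls, against 60.97, 48.9 and 73.4 RPM in CPA1. Measured against a floor of 3 counts in control replicate 1, the increase there was at least 10.6-fold, and it was 5.36-fold and 25.3-fold in experiments 2 and 3. In the fit without a filter on low counts its log2 fold change was 3.83 ± 0.41 (SE), with an adjusted p of 3.5e-17 that depends on how the fit treats a count of 0. Klf4, chosen after its values were seen, was at 0, 3.04 and 1.66 RPM in control and 21.3, 16.5 and 6.87 RPM in CPA1, and passed in the same fit (adjusted p = 0.0011).

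The bases just before the transcription start are shown for 6 genes, Fos, Btg2, Egr4 and Dusp1 as early genes and Chac1 and Atf3 as ATF4 targets. The motifs searched include cAMP response elements (CRE) and C/EBP-ATF elements. The 250 bases before the annotated start are from RefSeq on GRCm38.p6, read on the strand of the gene. Capitals mark the CRE (TGACGTCA), its half-site (TGACG, also part of the CRE), the AP-1 site (TGANTCA), the C/EBP-ATF element (TGATGNAA) and the CArG box, searched on both strands. The regions are chr12:85473640-85473889 (plus strand), chr1:134079156-134079405 (minus strand), chr6:85513590-85513839 (minus strand), chr17:26508473-26508722 (minus strand), chr2:119350992-119351241 (plus strand) and chr1:191183334-191183583 (minus strand), in the order shown.
Fos: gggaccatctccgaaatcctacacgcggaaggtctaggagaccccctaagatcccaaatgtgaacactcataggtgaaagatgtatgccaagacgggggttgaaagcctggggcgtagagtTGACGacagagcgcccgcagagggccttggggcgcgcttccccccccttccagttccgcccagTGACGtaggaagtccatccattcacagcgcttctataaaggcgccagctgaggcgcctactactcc
Btg2: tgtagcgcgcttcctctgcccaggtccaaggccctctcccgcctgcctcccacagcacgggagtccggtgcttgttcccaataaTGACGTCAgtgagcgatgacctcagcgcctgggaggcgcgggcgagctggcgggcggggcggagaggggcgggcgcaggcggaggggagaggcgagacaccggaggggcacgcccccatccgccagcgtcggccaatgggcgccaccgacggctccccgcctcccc
Egr4: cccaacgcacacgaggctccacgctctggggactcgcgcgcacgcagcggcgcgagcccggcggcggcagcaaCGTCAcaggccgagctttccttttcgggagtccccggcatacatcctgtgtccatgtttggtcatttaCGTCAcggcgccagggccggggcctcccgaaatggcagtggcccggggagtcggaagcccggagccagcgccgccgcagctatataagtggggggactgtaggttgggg
Dusp1: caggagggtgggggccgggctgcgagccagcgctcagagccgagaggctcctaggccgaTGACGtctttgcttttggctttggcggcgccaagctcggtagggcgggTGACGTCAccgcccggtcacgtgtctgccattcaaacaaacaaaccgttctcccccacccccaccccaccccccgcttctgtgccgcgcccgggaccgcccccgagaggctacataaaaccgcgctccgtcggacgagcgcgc
Chac1: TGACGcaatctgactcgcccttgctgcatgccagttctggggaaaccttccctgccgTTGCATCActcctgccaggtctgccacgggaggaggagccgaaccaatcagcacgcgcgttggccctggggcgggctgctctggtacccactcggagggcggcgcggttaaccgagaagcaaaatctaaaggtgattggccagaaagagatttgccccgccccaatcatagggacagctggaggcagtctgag
Atf3: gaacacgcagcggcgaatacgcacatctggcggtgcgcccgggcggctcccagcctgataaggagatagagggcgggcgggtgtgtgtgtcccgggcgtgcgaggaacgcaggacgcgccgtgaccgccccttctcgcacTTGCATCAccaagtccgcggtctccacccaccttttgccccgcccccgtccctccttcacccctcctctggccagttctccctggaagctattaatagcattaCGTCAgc

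RefSeq promoters were at hand for 17 of the 22 called genes. The half-site stood in those of 10 (Fos, Fosb, Junb, Egr4, Btg2, Dusp1, Midn, Chac1, Trib3 and Atf4), against 28.1% of the promoters of tested genes and 17.8% of all promoters. A complete CRE was present in 2, Btg2 from 166 to 159 and Dusp1 from 143 to 136 bases before the start, against 2.75% of the promoters of tested genes. Fos carried half-sites that begin 129 and 66 bases before the start. The C/EBP-ATF element was in 1 of the 17, Chac1, from 193 to 186 bases before the start, against 1.79% of the promoters of tested genes. Atf4, Ddit3 and Trib3 did not carry it in this window. Atf3, which was not among the tested genes, carried it from 110 to 103 bases before the start. The CArG box, bound by SRF, was in Zfp36 (1.23%) and the AP-1 site in Ddit3 (4.13%). These matches describe the letters in a short window and carry no test.

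CREB targets overlap with the early genes. Of 21 listed, 18 were tested and 4 rose (Fos, Fosb, Dusp1 and Sik1), against 0.217% of all genes called up. Of the 18, 0 fell, and their median lay 1.00 above that of all genes. Every one of the 4 is also on the early gene list, so they are not a separate group. Crem was at 3.84, 4.86 and 3.74 RPM in control and 6.71, 7.27 and 7.92 RPM in CPA1 (adjusted p = 0.91), and Irs2, the insulin receptor substrate that CREB maintains in β-cells, at 102, 45.6 and 70.2 and 201, 147 and 72.9 RPM (adjusted p = 0.42). Irs2 was higher in each experiment, but CPA1 replicate 3 lay below control replicate 1.

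In the ATF4 branch of the UPR, 4 genes rose at 1 h. Chac1, a γ-glutamylcyclotransferase that degrades glutathione and is a target of ATF4, showed the largest log2 fold change of the called genes. It lies on chromosome 2, 119351242 to 119354326 (GRCm38) and rose from 24.95, 29.2 and 41.9 to 137, 163 and 461 RPM (log2 fold change 2.92 ± 0.30 (SE), adjusted p = 1.5e-06). The rise was 5.41-fold, 5.52-fold and 10.9-fold in experiments 1, 2 and 3. Atf4 itself, on chromosome 15, 80255184 to 80257545, rose from 113, 207 and 274 to 321, 415 and 942 RPM (log2 fold change 1.46 ± 0.26 (SE), adjusted p = 0.004). Ddit3, which encodes the transcription factor CHOP, rose from 17.3, 15.2 and 17.4 to 29.3, 46.9 and 94.02 RPM (log2 fold change 1.82 ± 0.34 (SE), adjusted p = 0.0082). Trib3, a pseudokinase induced by ATF4 and CHOP, rose from 26.9, 23.1 and 23.3 to 33.5, 52.2 and 140.0 RPM (log2 fold change 1.59 ± 0.34 (SE), adjusted p = 0.036). On the total-count scale, control levels of Ddit3 and Trib3 were alike in the 3 experiments, while the CPA1 level was lowest in experiment 1 and highest in experiment 3. The folds of Trib3 were 1.24, 2.23 and 5.91, and its call was lost in 6 of 9 fits with a library or experiment left out, with an adjusted p of 0.68 and a log2 fold change of 0.85 without experiment 3.

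Of 41 ATF4 and CHOP targets listed, 38 were tested, 4 rose, 0 fell and 34 did not pass, against 0.217% of all genes called up. Their median lay 0.32 above that of all genes, and 17 of the 38 were above the median gene in every experiment, as were 14% of the genes tested. Ppp1r15a (GADD34), which directs dephosphorylation of eIF2α, was at 23.03, 44.4 and 72.3 RPM in control and 49.4, 65.4 and 131 RPM in CPA1. It was higher in each experiment, with a log2 fold change of 0.83 (adjusted p = 0.37) and, with TMM, of 0.92, adjusted p = 0.032. Amino acid metabolism members of the list were not called. Asns, asparagine synthetase, was at 92.1, 119 and 203 RPM in control and 76.8, 85.3 and 263 RPM in CPA1 (log2 fold change −0.061, adjusted p = 0.99), lower in experiments 1 and 2 and higher in experiment 3.

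**Figure D3:**
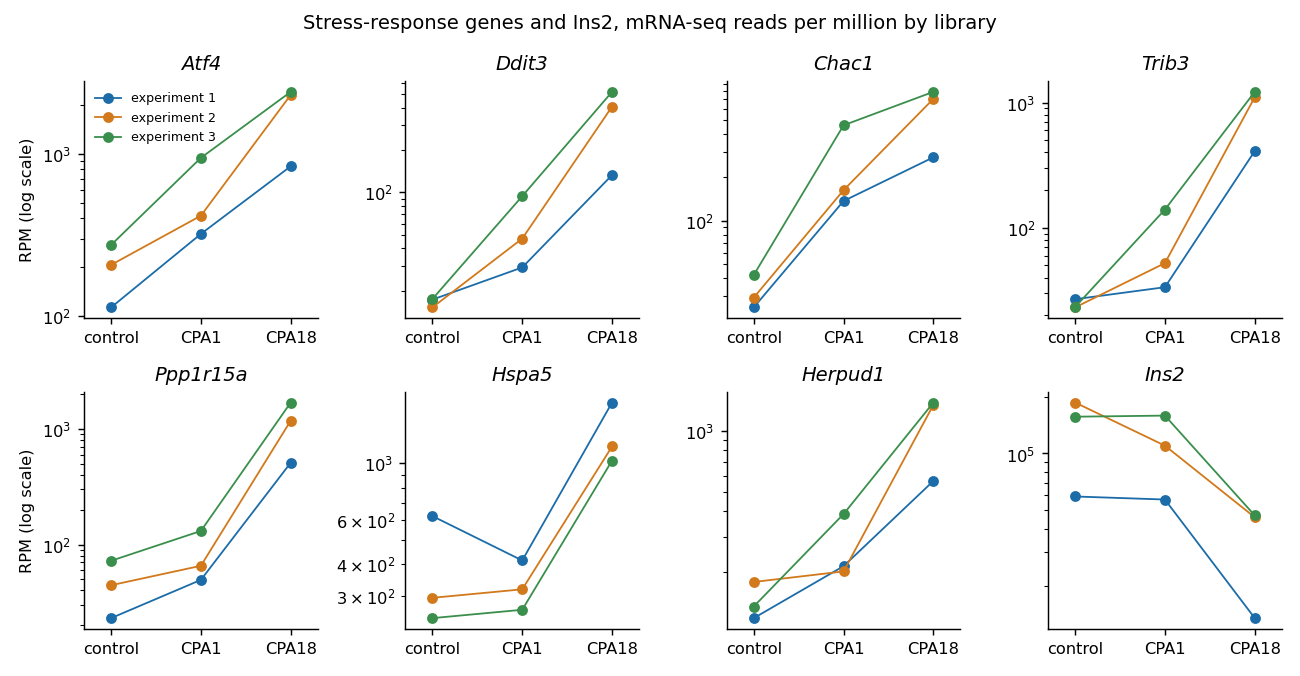
RPM (log scale) of stress-response genes and Ins2 in the control, CPA1 and CPA18 mRNA-seq libraries, 1 line per experiment. Atf4, Ddit3, Chac1 and Trib3 are above control at CPA1 in every experiment and higher still at CPA18, whereas Hspa5 overlaps between control and CPA1.

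ER chaperones and ERAD genes, the usual targets of ATF6 and XBP1, were all tested (41 of 41) and 0 passed in either direction. Their median lay 0.10 below that of all genes, with 12 of 41 below the median gene in every experiment, as were 12.4% of the genes tested, and 4 above it in every experiment. Hspa5 (BiP), the main ER chaperone, was at 620.0, 296 and 246 RPM in control and 415, 319 and 265 RPM in CPA1 (log2 fold change −0.12 ± 0.23 (SE), adjusted p = 0.99). Sdf2l1 was at 117, 270.0 and 480.5 and 93.3, 167 and 391 RPM, lower in all 3 experiments without passing the test (adjusted p = 0.92). Xbp1, the substrate of IRE1, was at 113, 249 and 320.2 and 172, 206 and 408 RPM (adjusted p = 0.98), and the counts do not separate its spliced form. Herpud1, an ERAD component that ATF4 also induces, was the member with the largest increase, from 119, 179 and 136 to 215, 202 and 388 RPM. The groups did not overlap, and it passed with TMM (log2 fold change 1.03, adjusted p = 0.03) and not with the total count (adjusted p = 0.36). Hyou1, Dnajb9 and Wfs1 had log2 fold changes of −0.34, −0.32 and −0.16 and did not pass. Of 6 tested substrates of IRE1-dependent decay 0 passed, Bloc1s1 among them, at 11.5, 35.9 and 32.4 RPM in control and 18.3, 16.5 and 26.9 RPM in CPA1.

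**Figure D4:**
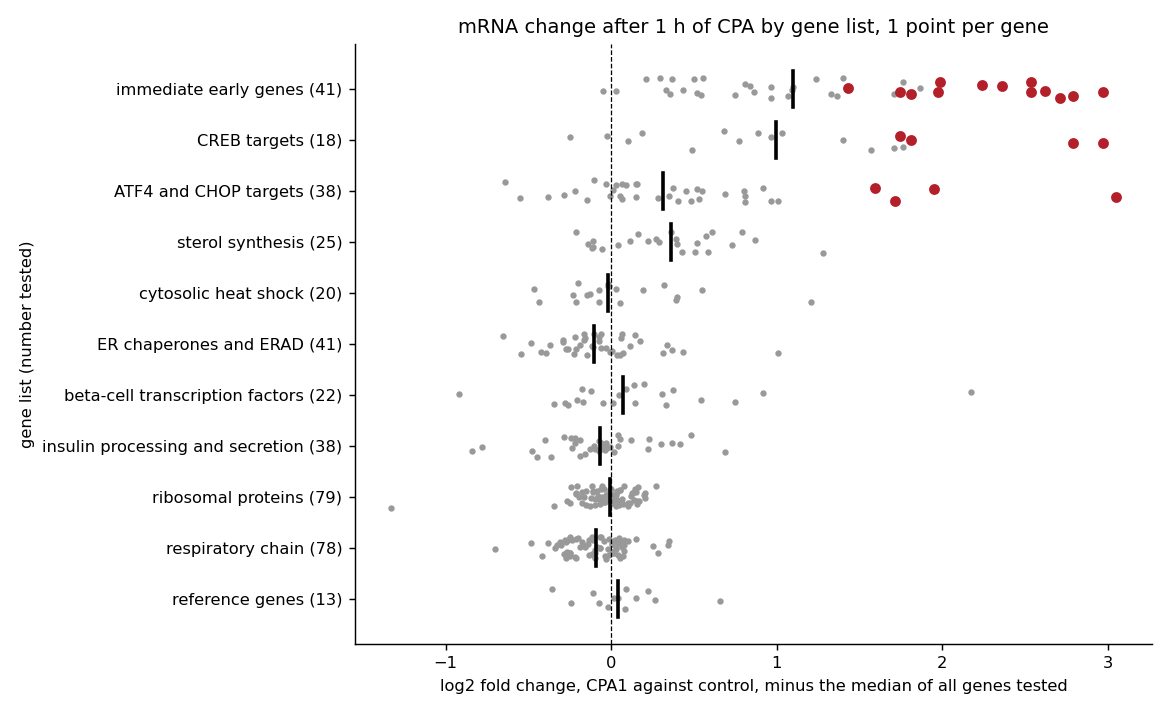
Log2 fold change of each tested gene, CPA1 against control, minus the median of all genes tested, by gene list. Black bars are list medians and red points genes with an adjusted p under 0.05. Red points occur in the early gene, CREB and ATF4 lists of those drawn, with the early gene median at 1.10 and the ER chaperone median at −0.10.

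Other stress pathways gave few or no calls. Of 20 tested cytosolic heat shock genes 0 passed, although Dnajb1, a co-chaperone of HSP70, was higher in all 3 experiments (42.2, 69.3 and 86.8 RPM in control, 77.4, 145 and 199 RPM in CPA1) and passed with TMM (log2 fold change 1.22, adjusted p = 0.0079). Hspa1b and Hsph1, defining members of that list, had adjusted p of 0.98 and 0.98, and Hspa8 of 0.98. The NF-kB list had 8 tested members and 0 calls, with Nfkbia at 40.3, 50.5 and 27.8 and 49.4, 62.8 and 61.8 RPM. Of 16 p53 targets the 1 called was Btg2, which is also an early gene, and Cdkn1a and Mdm2 had adjusted p of 0.99 and 0.99. No call was made among 17 NRF2 targets, where Hmox1 was at 23.03, 168 and 48.2 and 18.9, 35.03 and 70.8 RPM with control replicate 2 the highest library, and Txnrd1 had an adjusted p of 0.99. Among 25 sterol synthesis genes 0 passed, 11 of them were above the median gene in every experiment, as were 14% of the genes tested, and the median lay 0.36 above that of all genes. Hmgcs1, the synthase that makes HMG-CoA for the pathway, was at 15.4, 12.8 and 9.14 RPM in control and 39.6, 26.4 and 20.1 RPM in CPA1, without overlap (log2 fold change 1.15, adjusted p = 0.36). Insig1, a sterol sensor of the ER membrane, passed with TMM (log2 fold change 0.83, adjusted p = 0.032) and not with the total count (adjusted p = 0.55).

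Clock genes gave 0 calls of 16 tested. Per1, which CREB also induces, was at 15.4, 21.9 and 44.8 RPM in control and 65.8, 66.1 and 73.4 RPM in CPA1 (log2 fold change 1.44 ± 0.36 (SE), adjusted p = 0.16). Its groups did not overlap, and it passed with DESeq2 (adjusted p = 0.030). Per2, Dbp and Nr1d1 had log2 fold changes of 0.15, −0.058 and 0.90. ER calcium handling, the process that CPA acts on, had 29 tested members and 0 calls. The SERCA genes Atp2a2 and Atp2a3 had log2 fold changes of −0.32 ± 0.24 and −0.50 ± 0.24 (SE), adjusted p = 0.97 and 0.82. Stim1, the ER calcium sensor, was at 17.3, 16.4 and 19.1 and 7.93, 7.27 and 19.5 RPM and Rcan1, a calcineurin target, at 15.4, 31.6 and 34.9 and 26.2, 21.1 and 35.4 RPM, both with overlap.

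β-cell identity genes were not called at 1 h. In libraries of whole cultures, fewer cells of a type and less RNA per cell cannot be told apart. Of 22 tested transcription factors 0 passed. Pdx1 was at 378, 375 and 327 RPM in control and 304, 338 and 412 RPM in CPA1, and Mafa, the activator of insulin genes in mature cells, at 532, 869 and 1381 and 732, 810.3 and 1218 RPM (log2 fold changes −0.041 ± 0.23 and 0.067 ± 0.24 (SE)). Neurod1, Nkx6-1 and Nkx2-2 had log2 fold changes of −0.30, −0.47 and 0.41, with adjusted p from 0.91 to 0.98. Insulin processing and secretion genes gave 0 calls of 38, and glucose response genes 0 of 10. The prohormone convertase genes Pcsk1 and Pcsk2 and the glucose transporter gene Slc2a2 had log2 fold changes of −0.15, −0.19 and −0.32, and Txnip and Arrdc4, which follow glucose, of 1.31 and 0.088 (adjusted p = 0.37 and 0.99). Txnip passed when the control and CPA1 libraries were fitted alone (log2 fold change 1.55, adjusted p = 0.024). It did not pass with TMM (log2 fold change 1.57, adjusted p = 0.52). Its folds were 1.13, 3.05 and 7.56 in experiments 1, 2 and 3, and the groups overlapped. Ins1 and Ins2 together took 6.60, 20.9 and 17.5% of the reads in control and 6.38, 12.3 and 17.5% in CPA1. The means were 15.0% ± 7.49 and 12.1% ± 5.56 (SD, n = 3), a difference of −2.94 percentage points (two-sided exact permutation test, p = 0.5, where 3 against 3 libraries cannot go below 0.1). This test does not pair the libraries by experiment, and the SDs include the differences between experiments. Within experiments the share was lower in CPA1 each time, in experiment 3 only by 17.495 against 17.510%. Most of the difference came from experiment 2, where the Lars2 share was also higher in CPA1. With Lars2 left out of the total, an alternative chosen after seeing the data, the difference was −0.82 percentage points (exact permutation test, p = 0.8). Wilson 95% intervals of these shares were narrow, for instance 12.29% to 12.396% for CPA1 replicate 2, and cover counting error only.

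The 7 β-cell markers and the 1 marker of other cells that could be tested (Gcg) gave 0 calls, and housekeeping groups gave none either. Of 79 ribosomal protein genes, 78 respiratory chain genes, 35 proteasome genes and 13 reference genes, 0 passed, and their medians differed from that of all genes by −0.0094, −0.09, −0.073 and 0.043. Gapdh and Actb had log2 fold changes of −0.086 ± 0.24 and −0.036 ± 0.24 (SE).

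The remaining called genes stood outside the lists above. Cebpd, a C/EBP transcription factor of acute responses, rose from 3.84, 10.3 and 13.3 to 25.6, 37.01 and 41.7 RPM (log2 fold change 1.98 ± 0.40 (SE), adjusted p = 0.021), at low counts of 2 reads in control replicate 1. Midn, which promotes ubiquitin-independent degradation of early gene products, rose from 19.2, 26.1 and 79.7 to 89.02, 97.8 and 132 RPM (log2 fold change 1.51 ± 0.32 (SE), adjusted p = 0.03), and did not pass with TMM (log2 fold change 1.60, adjusted p = 0.071). C2cd4b, a nuclear factor near a type 2 diabetes locus, rose from 47.99, 125 and 153 to 165, 302 and 270.4 RPM (log2 fold change 1.26 ± 0.26 (SE), adjusted p = 0.029). Midn and C2cd4b were chosen after their values were seen. Linker histone genes H1f2 and H1f3 were at 328, 285 and 446 and 221, 68.7 and 153 RPM in control and at 629.8, 699 and 910.1 and 398, 395 and 245 RPM in CPA1 (log2 fold changes 1.08 ± 0.24 and 1.32 ± 0.29 (SE), adjusted p = 0.036 and 0.036). Most histone mRNAs carry no poly(A) tail and near-identical copies share reads, so their counts are uncertain. The median of 75 histone genes, a list made after the values were seen, was 63.3, 20.7 and 52.7 RPM in control and 92.7, 97.8 and 47.5 RPM in CPA1. It was higher in experiments 1 and 2, where the Lars2 share was also higher in CPA1, and lower in experiment 3, where Lars2 was lower. With Lars2 left out of the total the median was 115, 22.3 and 62.1 RPM in control and 199, 158 and 51.8 RPM in CPA1, with the same direction in each experiment. With Lars2 left out of the library size, H1f2 passed (log2 fold change 1.31, adjusted p = 0.0028) and H1f3 did not (1.56, adjusted p = 0.16). With TMM they gave 1.24, adjusted p = 0.0045, and 1.497, adjusted p = 0.17.

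With TMM, 7 further genes passed, all up. Besides Dnajb1, Herpud1, Ppp1r15a and Insig1 these included Npas4, a calcium-dependent neuronal early factor (13.4, 13.4 and 7.89 RPM in control, 30.5, 37.7 and 29.1 RPM in CPA1, log2 fold change 1.72, adjusted p = 0.023) and H3f3b, a histone H3.3 gene with a poly(A) tail (log2 fold change 0.92, adjusted p = 0.03). Npas4 and H3f3b were chosen after their values were seen.

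Ribosome footprints from the same experiments were read in libraries that had no part in choosing the called genes. In the paper's methods, however, mRNA and ribosomes were both taken from the same cell lysate. A difference between cultures would therefore enter both assays. In all 22, every CPA1 Ribo-seq library lay above every control Ribo-seq library, which held for 10.4% of 7794 genes with reads in all 18 libraries. Their Ribo-seq log2 fold changes ran from 1.02 (H1f2) to 4.15 (Ddit3), where the median of all genes was 0.0685. Fos footprints were at 142, 197 and 81.2 RPM in control and 1144, 1694 and 809.6 RPM in CPA1, and Btg2 footprints at 66.98, 71.00 and 43.4 and 668, 795 and 210.4 RPM. Atf4 footprints were at 105, 118 and 149.5 RPM in control and 635, 848 and 1060.3 RPM in CPA1, and those of Ddit3 at 1.22, 2.15 and 7.38 and 48.1, 53.5 and 97.7 RPM.

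Ribosome occupancy, the Ribo-seq change relative to the mRNA change, was assessed with an assay-by-treatment interaction term. It was called for 7 of 7794 genes, all toward more footprints (0.0898%), and for 0 of the 22. The direction depended on the scaling and the tool, with 8 genes toward more and 12 toward fewer footprints with TMM, 7 and 22 without Ins1, Ins2 and Lars2 in the total, and 13 and 28 with DESeq2. The difference was 1.29 ± 0.31 (SE) on the log2 scale for Atf4 (adjusted p = 0.058) and 2.27 ± 0.55 for Ddit3 (adjusted p = 0.061). Both passed with TMM (adjusted p = 0.026 and 0.038), with DESeq2 (2.67e-04 and 0.0093) and without Ins1, Ins2 and Lars2 in the total (0.015 and 0.041). Both also passed without experiment 3 (adjusted p = 0.049 and 0.012). With at least 10 reads in each library Atf4 passed (adjusted p = 0.0135) and Ddit3 was not tested. Neither passed without the block (adjusted p = 1 for both), without experiment 1 (0.46 and 0.51) or without experiment 2 (0.40 and 0.68). For Fos and Jun it was 0.46 ± 0.35 and 0.055 ± 0.42. Atf5, an ATF4 relative with upstream reading frames in its leader, was among the 7 and was chosen after its values were seen. Its mRNA was at 88.3, 169.6 and 219.7 RPM in control and 86.6, 104 and 211 RPM in CPA1 (log2 fold change −0.23, adjusted p = 0.98), and its Ribo-seq change exceeded its mRNA change by 2.08 ± 0.36 (SE, adjusted p = 7.4e-04).

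**Figure D5:**
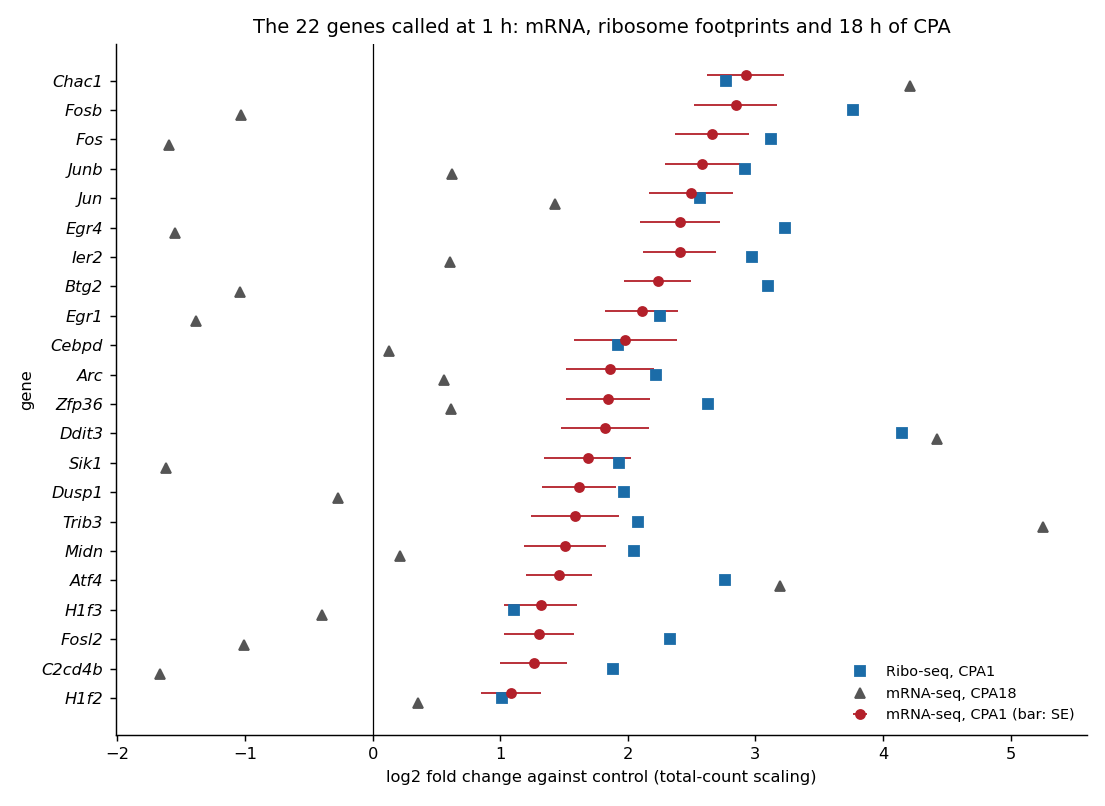
Log2 fold changes against control of the 22 genes called at 1 h, in mRNA-seq at CPA1 (circles, bars are SE), Ribo-seq at CPA1 (squares) and mRNA-seq at CPA18 (triangles), with total-count scaling. Circles and squares lie to the right of 0 for every gene, while triangles of Fos, Fosb, Egr1, Egr4 and Btg2 lie to its left and those of Atf4, Ddit3, Chac1 and Trib3 to the right of the circles.

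The 22 genes divided by time. CPA18 and CPA1 are compared with the same controls, so the direct comparison of CPA18 with CPA1 was used as the test. It called 2487 genes up (24.6%) and 473 down (4.67%), a split that depends on the scaling, since TMM called 1257 up and 1225 down. Of the 22, 18 fell from CPA1 to CPA18 and 4 rose. The 22 were chosen for high values in the CPA1 libraries that this comparison uses again, which favours a fall among them. The 4 that rose were Atf4, Ddit3, Chac1 and Trib3. Fos was at 24.97, 16.6 and 27.8 RPM at CPA18, below every control library, and Egr1 at 69.3, 68.8 and 84.5 RPM. Jun, at 74.9, 72.1 and 79.5 RPM, stayed above the controls. Trib3 reached 411, 1107 and 1222 RPM and Ddit3 133, 408 and 519 RPM.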

How the data were processed

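mRNA-seq and Ribo-seq libraries of MIN6 cells were counted by the authors per RefSeq transcript. They kept reads of 15 to 40 bases, aligned them with Bowtie2 (version not given in the sources used here) to the GRCm38 RNA reference, and deposited per transcript the read count, the RPM and the RPKM. Short fragments cannot always be assigned to 1 of several alike transcripts, transcripts without a read are not listed, and whether counting used the strand is not given in the sources used here. Reads of near-identical genes (histones, Ins1 and Ins2, Hspa1a and Hspa1b) and of overlapping genes are therefore uncertain.

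Here 30741 transcripts were joined to RefSeq genes of GRCm38 (30227 with and 478 without the version, 36 unmatched) and counts were summed per gene. RPM values were recomputed from summed counts. Genes with at least 1 read in each of the 9 mRNA-seq libraries (10126) were fitted with edgeR 4.0.16 (R 4.3.3, quasi-likelihood F test, total count as library size, experiment as block, Benjamini-Hochberg adjustment over all of them). CPA1, CPA18 and control shared 1 fit. The interaction of assay and treatment used 7794 genes with reads in all 18 libraries. DESeq2 1.42.0, TMM, limma 3.58.1 on log2 of the RPKM and leaving out libraries were alternatives. The fits were tested on simulated data. Promoter sequences are those of RefSeq on GRCm38.p6.

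The labels give the experiment as a batch, which pairs the samples. Deviations from group means correlated by 0.18 to 0.69 (mean 0.52) between libraries of the same experiment. Between control and CPA1 the correlation was 0.69, 0.18 and 0.57 in experiments 1, 2 and 3. In experiment 2 it was 0.18 between CPA1 and CPA18 and 0.58 between control and CPA18. Libraries of different experiments were not set beside these pairs. Control replicate 2 was used as titled, although its description names the other assay.

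Genes were named by a rule: the 12 largest increases and 12 largest decreases of those that passed the test, moved alike in each experiment and averaged 1 RPKM or more, then the defining members of 21 gene lists, and their called members. A few genes that the rule names are not reported here. Members and lists were chosen with earlier results of these data known. Total counts of the 6 libraries ran from 520960 to 2408123. With 3 libraries per group, p-values of the mRNA-seq fit measure the spread left after the block removes level differences between experiments. That spread is taken from the control, CPA1 and CPA18 libraries together, all of 1 line.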

Additional observations from a re-analysis of the deposited data

Results flagged for a closer look

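The effect of CPA on the following genes differed between 1 h and 18 h (edgeR quasi-likelihood test of CPA18 against CPA1, adjusted p under 0.05). Genes called at 1 h were chosen on the same CPA1 libraries, which favours lower values at 18 h among them. Values are log2 differences in mRNA level, CPA18 minus CPA1, on the total-count scale, where the median of all genes was 0.42. Among the early genes called at 1 h they were −4.25 for Fos, −3.88 for Fosb, −2.31 for Fosl2, −1.06 for Jun, −1.960 for Junb, −3.49 for Egr1, −3.96 for Egr4, −1.80 for Ier2, −3.27 for Btg2, −1.23 for Zfp36, −1.89 for Dusp1, −1.303 for Arc and −3.30 for Sik1. The other genes called at 1 h outside the ATF4 branch gave −1.85 for Cebpd, −1.29 for Midn, −2.93 for C2cd4b, −0.73 for H1f2 and −1.71 for H1f3. In the ATF4 branch they were 1.73 for Atf4, 2.60 for Ddit3, 1.29 for Chac1 and 3.67 for Trib3.

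Genes that did not pass at 1 h also differed. Members of the early, CREB and clock lists gave −4.38 for Nr4a1, −1.37 for Crem, −1.77 for Irs2 and −1.17 for Per1. UPR genes were higher at 18 h, with 3.75 for Ppp1r15a, 1.53 for Asns, 1.958 for Hspa5, 2.16 for Dnajb9, 2.23 for Sdf2l1, 2.08 for Hyou1, 1.97 for Herpud1, 1.34 for Xbp1 and 2.32 for Wfs1. β-cell genes were lower at 18 h, with −1.42 for Pdx1, −1.64 for Nkx2-2, −1.22 for Nkx6-1, −2.32 for Mafa, −1.59 for Neurod1, −2.31 for Ins1, −1.71 for Ins2, −1.34 for Pcsk1, −1.37 for Pcsk2 and −2.999 for Slc2a2. The rest were 0.87 for Cdkn1a, 1.80 for Nr1d1, 2.57 for Hmox1, 1.27 for Rcan1 and −0.86 for Actb.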

How the results depend on the processing

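The count of genes changed at 1 h was 22 and stayed within 1.5 times of it with TMM, without Ins1 and Ins2 in the total, without Lars2 as well, with the 6 libraries alone and with 1 transcript per gene. It was 0 without the replicate block, 37 with DESeq2, 166 without a filter on low counts, 73 with at least 10 reads in each library, 13 and 14 with limma on log2(RPKM + 0.5) and log2(RPKM + 1), and 1 with TMM and no replicate block, a setting chosen after seeing the data. Leaving out libraries or experiments gave 5 to 351 genes. It was 12 without control replicate 1, 10 without CPA1 replicate 1 and 5 without experiment 1, and 351, 290 and 330 without control replicate 3, CPA1 replicate 3 and experiment 3, of which 272, 227 and 258 were lower. Of the 166 and 73 genes, 121 and 38 were lower. No called gene changed sign in 478 values under the alternatives, and 134 of these did not pass. The block rests on the experiment numbers of the labels.

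CPA18 against CPA1 gave 2960 genes, 106 without the replicate block, 1965 with DESeq2 and 1318 to 2205 with an experiment left out, lowest without experiment 2. The Ribo-seq change differed from the mRNA change for 7 genes, 0 without the replicate block, 20 with TMM, 29 without Ins1, Ins2 and Lars2, 41 with DESeq2 and 4 to 73 with an experiment left out, 73 without experiment 3 and 4 without either of the others. The cause of these shifts was not tested. The Ins1 and Ins2 share differed by −4.40 to −0.12 percentage points with an experiment left out, −0.12 without experiment 2, and by −0.82 without Lars2 in the total. Of 1040 values of genes that did not pass, 113 changed sign. Depth limited genes such as Atf3 that lack reads in the shallowest control.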

Other observations

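Many of the largest decreases were read from 1 library. Of 97 genes with a mean of at least 20 RPM and a log2 fold change under −1.3, a set chosen after the values were seen, control replicate 2 was the highest of the 6 libraries in 97. It exceeded the highest of the other 5 libraries by a median of 8.66-fold. Their median log2 fold change was −1.52 with all libraries and −0.33 without control replicate 2, and the lowest adjusted p among them was 0.11. Mmd, for example, was at 30.7, 399 and 29.9 RPM in control and at 4.88, 33.05 and 36.4 RPM in CPA1. Without control replicate 3, 272 genes were called lower, and in 260 of them control replicate 2 was the highest library. Without control replicate 2, 0 genes were called lower, as with all libraries. The cause of these lower calls was not tested.

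Scg3, a secretory granule protein 1 of 4 genes that DESeq2 called lower (adjusted p = 0.028, with Gm20736, Mmd and Zdhhc8), differed from that set, with control replicate 1 the highest library. It was at 274, 198 and 106 RPM in control and at 120.1, 106 and 68.7 RPM in CPA1, lower in all 3 experiments. Its log2 fold change was −0.91 ± 0.25 (SE, adjusted p = 0.28, edgeR) and −0.93 without control replicate 2.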
